A study of Mus musculus with 10 samples.

Results

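Of 20807 protein-coding genes on mouse chromosomes 1 to 19, 916 (4.40%, 95% Wilson interval 4.13 to 4.69%) had an open 5′ end and lacked H3K4me3 in F123 embryonic stem cells. A gene was taken when a replicated ATAC-seq peak overlapped the 500 bp either side of its 5′ end and no replicated H3K4me3 peak came within 2 kb of any of its annotated transcript starts. The genes were thus chosen by the presence of an ATAC-seq peak and the absence of an H3K4me3 peak, and neither is a finding here. A further 13587 genes had both features (65.3%), 1153 had H3K4me3 and no open 5′ end (5.54%), and 5151 had neither (24.8%). An open 5′ end was found in 69.7% of all genes and H3K4me3 within 2 kb in 70.8%, and the 916 genes were 6.32% of the 14503 genes whose 5′ end was open.

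F123 is an established hybrid stem cell line from a cross of Mus musculus castaneus with S129/SvJae. All samples carried this one genotype, with no treatment and no time course. The cells had been kept on irradiated CF1 embryonic fibroblasts and then passed once onto plates without feeders. ATAC-seq was made from 2 biological replicates of 100000 cells each and H3K4me3 ChIP-seq from 2 biological replicates of 2000000 cells each, and 1 list of replicated peaks per assay joins its replicates. No value per replicate and no read depth came with these lists, so the intervals given here cover only the counting of genes, and no comparison was tested. Of 8 stem cell markers (Pou5f1, Sox2, Nanog, Klf4, Esrrb, Zfp42, Tfcp2l1 and Tdgf1), 8 had both features. Of 8 fibroblast markers, 5 had both and Col3a1, Lum and Postn had neither, so no marker on either list was among the 916 genes.

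H3K4me3, the trimethylated form of lysine 4 on histone H3, is laid down around the starts of active genes, and at many starts rich in CpG it is present even when the gene is poorly transcribed. ATAC-seq inserts adapters with a transposase wherever the DNA is not wrapped tightly, so its peaks mark promoters, enhancers and insulators alike. Promoters of broadly used genes are mostly CpG islands with wide open regions, whereas promoters of genes used in 1 tissue are often poor in CpG and may carry a TATA box.

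Sequence upstream of 8 of these genes is shown for the features described below. Each is the 150 bases that end just before the annotated 5′ end, on the strand of the gene, from the RefSeq copy of GRCm38 (mm10). The first pair, the small proline-rich genes Sprr1a at chr3:92485896-92486045 (minus strand) and Sprr2a3 at chr3:92285267-92285416 (plus strand), have TATAAA in capitals, and in both the first T of it lies at base -29. The next pair had very wide ATAC-seq peaks and differ in CpG, which is in capitals: Tmem265 at chr7:127561240-127561389 (plus strand) holds 2 CpG and Hist1h2ap at chr13:21833508-21833657 (minus strand) holds 9. The last 4 show near-identical copies among the members. In Gm3488 at chr14:5501524-5501673 (plus strand) the capitals mark the 8 bases that differ from Gm8281 at chr14:5070890-5071039 (plus strand), an identity of 94.7%. In Gm13278 at chr4:88791400-88791549 (plus strand) the capital marks the 1 base that differs from Gm13275 at chr4:88794337-88794486 (plus strand), an identity of 99.3%.
Sprr1a: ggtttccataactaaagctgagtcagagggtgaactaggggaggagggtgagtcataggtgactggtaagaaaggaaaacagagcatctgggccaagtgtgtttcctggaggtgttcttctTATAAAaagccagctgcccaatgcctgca
Sprr2a3: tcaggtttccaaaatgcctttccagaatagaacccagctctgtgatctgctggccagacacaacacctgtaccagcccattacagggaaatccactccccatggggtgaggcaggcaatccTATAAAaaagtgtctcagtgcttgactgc
Tmem265: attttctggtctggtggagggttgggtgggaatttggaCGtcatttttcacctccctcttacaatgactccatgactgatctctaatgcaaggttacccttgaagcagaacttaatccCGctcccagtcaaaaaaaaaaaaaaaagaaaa
Hist1h2ap: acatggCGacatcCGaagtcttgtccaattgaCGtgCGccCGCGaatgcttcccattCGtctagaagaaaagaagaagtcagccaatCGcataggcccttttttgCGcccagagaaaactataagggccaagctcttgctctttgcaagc
Gm8281: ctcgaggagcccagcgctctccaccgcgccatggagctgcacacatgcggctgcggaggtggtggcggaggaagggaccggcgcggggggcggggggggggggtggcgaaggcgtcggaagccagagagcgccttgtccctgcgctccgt
Gm3488: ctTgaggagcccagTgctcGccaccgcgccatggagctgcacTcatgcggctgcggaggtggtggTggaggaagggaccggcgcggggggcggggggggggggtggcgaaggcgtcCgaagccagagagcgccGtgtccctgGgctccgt
Gm13275: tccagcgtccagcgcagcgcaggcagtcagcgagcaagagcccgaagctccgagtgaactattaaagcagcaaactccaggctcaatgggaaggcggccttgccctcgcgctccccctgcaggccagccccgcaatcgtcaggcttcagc
Gm13278: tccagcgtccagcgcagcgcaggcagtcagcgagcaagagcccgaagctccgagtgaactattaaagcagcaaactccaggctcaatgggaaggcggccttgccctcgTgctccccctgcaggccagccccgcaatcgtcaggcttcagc

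The ATAC-seq peaks at these starts were narrow (median 315 bp, 95% interval of the median 294 to 334 bp), and the peaks at starts with both features were wide (median 911 bp, 906 to 917 bp). The quartiles were 199.75 and 506 bp in the former and 709 and 1138 bp in the latter. Of the 916 genes, 115 (12.6%) reached the lower quartile of the genes with both. Conversely 519 of 13587 genes with both (3.82%) had a peak no wider than 315 bp. Distal ATAC-seq peaks, those over 2 kb from any annotated transcript start and without H3K4me3, numbered 115915 and had a median width of 230 bp. A wide peak meets a fixed window more often than a narrow one, and weighting each distal peak by its width plus 1000 bp brought that median to 250 bp. The widths at the 916 starts therefore lay between those of distal peaks and those of starts with both, and closer to the distal ones.

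**Figure D1:**
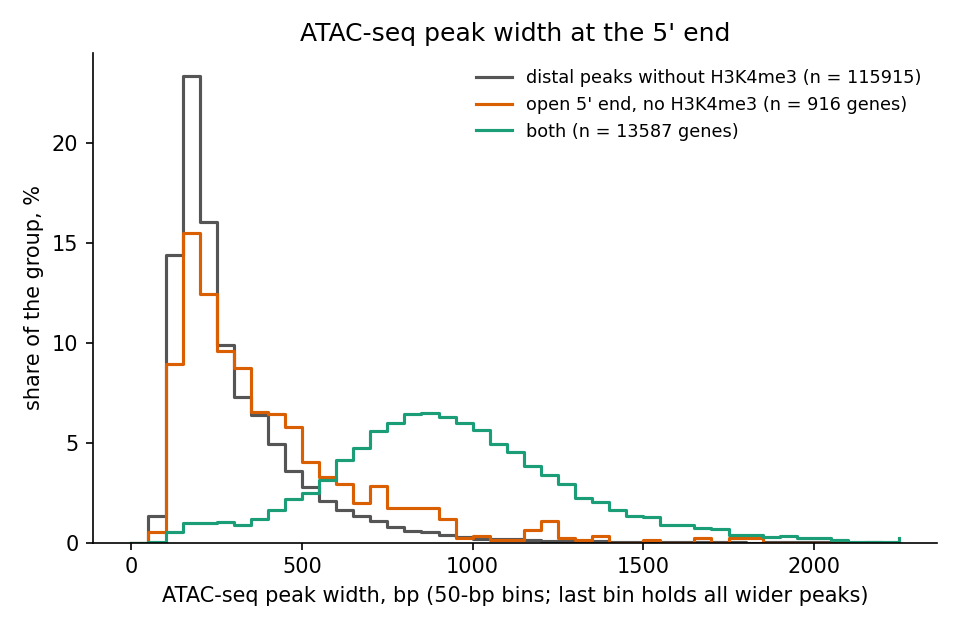
Share of each group (vertical axis, %) against the width of the ATAC-seq peak in 50-bp bins (horizontal axis, bp), for the 916 open starts without H3K4me3, the 13587 starts with both and the 115915 distal peaks, with the widest peak taken where a start had several. The medians are 315, 911 and 230 bp.

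Among genes with both features, width went with the strength of H3K4me3. When these genes were split into 10 equal parts by the fold enrichment of their strongest H3K4me3 peak, the lowest part had a median fold of 7.72, a median ATAC-seq width of 612 bp and a median CpG ratio of 0.40. The highest part had a median fold of 54.1, a width of 1014 bp and a CpG ratio of 0.85. The 916 starts were narrower than even the lowest part, whose quartiles of width were 417 and 806 bp.

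The peak covered the start base itself in 572 of the 916 genes (62.4%, 59.3 to 65.5%) and in 12651 of the genes with both (93.1%). The wider peaks of the latter were not allowed for. A single peak lay in the window in most, and 75 genes (8.19%) had more than 1, against 10.2% of genes with both. The middle of the peak lay a median of 119 bp from the start, against 150 bp in genes with both. Its signed position in the members was centred on the start (median -10.5 bp, 95% interval -23 to 2 bp). At starts with both the middle lay downstream (median 97 bp, 92 to 100 bp). The 916 genes had few annotated starts (median 2, against 4 in genes with both), and 350 of them (38.2%) had a single start, a share near that of genes with neither (41.5%). The 5′ end lay inside another coding gene in 118 (12.9%), close to the 12.7% of genes with both. At least 1 CCDS transcript was listed for 757 (82.6%), against 13177 of the 13587 genes with both and 85.8% of genes with neither.

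The 10 genes with the widest peaks rested on 6 distinct peaks. A peak of 1844 bp covered Hist1h2ap and Hist1h2br, which encode histones H2A and H2B and start 236 bp apart. A peak of 1694 bp covered Hist1h2ao and Hist1h2bq, another H2A and H2B pair in the same histone cluster. Gm8281 (1765 bp) and Gm8108 (1759 bp) are predicted genes near the start of chromosome 14, and Tmem265 (1501 bp) encodes a transmembrane protein. A peak of 1361 bp held the starts of Aspa, the aspartoacylase that breaks down N-acetylaspartate, of Spata22, a meiotic recombination gene, and of Gm49340, whose annotated start is the same base as that of Spata22. Across all members, 34 shared their widest peak with another member, so the 916 genes stood for 898 distinct peaks.

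Repeated sequence moved with this class. For each gene the share of 50-base words around the 5′ end (500 bp either side) that occur again in the genome was counted. That share was 50% or more, called highly repeated here, in 178 of the 916 genes (19.4%), in 63 of the genes with both (0.464%) and in 647 of the genes with neither (12.6%). Seen from the other side, 178 of 241 open starts with such sequence lacked H3K4me3 (73.9%, 68.0 to 79.0%), against 639 of 13673 open starts with under 10% repeated sequence (4.67%, 4.33 to 5.04%). The share rose in every step between, from 4.19% of open starts with no repeated word to 89.2% of those with 90 to 100%. The stated settings of the ATAC-seq alignment name no limit on reads that map to several places, and the treatment of such reads in the ChIP-seq pipeline is not given in the sources used here. The part of repeated sequence in the result was not tested.

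**Figure D2:**
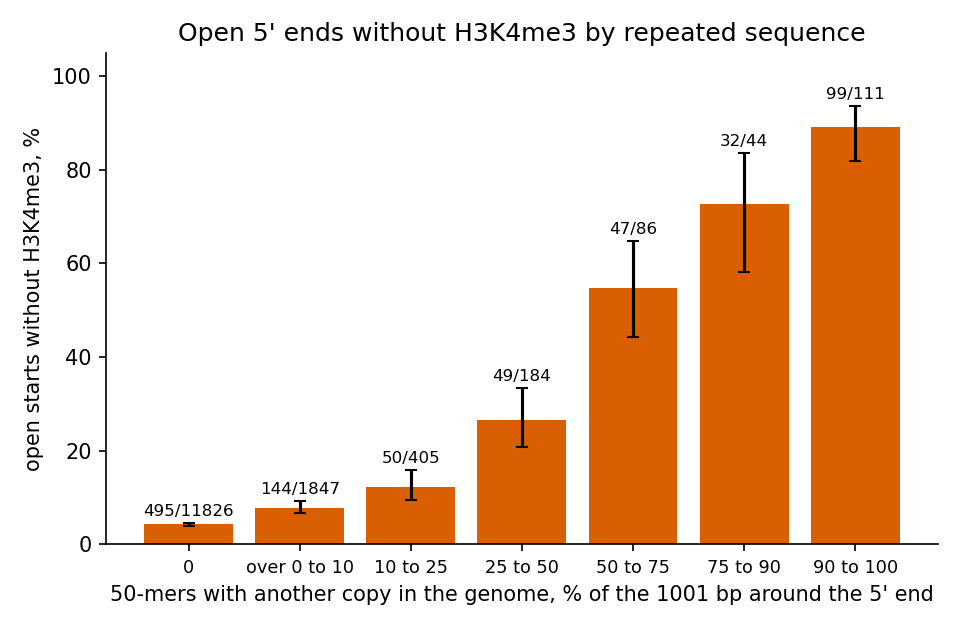
Share of open 5′ ends without H3K4me3 (vertical axis, %) by the share of 50-base words in the window that have another copy in the genome (horizontal axis, %), with 95% Wilson intervals as error bars and the counts above them. The share climbs from 4.19% (495 of 11826) to 89.2% (99 of 111).

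The wide peaks were concentrated in the repeated group. The 178 highly repeated members had a median width of 593.5 bp (450 to 673 bp) and 39.3% of them reached the lower quartile of the genes with both. The 639 members with under 10% repeated sequence had a median of 277 bp (262 to 301 bp), and 5.01% reached it. In the latter the gap to the genes with both of the same kind (916 bp) was 3.31 times, against 2.89 times over all members. The 63 highly repeated genes with both had a median width of 874 bp. The 593.5 bp of the highly repeated members lay near the 612 bp of the lowest of the 10 parts by H3K4me3 fold.

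Identical upstream sequence was common as well. The 150 bases before the start were the same in another coding gene for 52 of the 916 genes (5.68%) and for 19 of the genes with both (0.140%). Some of these genes start at the same base, as Gm49340 and Spata22 do, and are no copies. Counting only copies at another place left 50 members (5.46%) and 7 genes with both (0.0515%). In Tmem254a and Tmem254b, copies of a transmembrane protein gene on chromosome 14, these bases were identical, and the peaks were 938 and 920 bp wide. The third copy, Tmem254c, had a peak of 897 bp. Other pairs split between classes. Hist1h4m, an H4 histone gene, lacked H3K4me3 while Hist1h4n, with the same 150 bases, had both. The same held for Srp54b and Srp54c, copies of a gene for a subunit of the signal recognition particle, and for the zinc finger genes Zfp955b and Zfp955a.

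Members with little CpG prevailed. The ratio of observed to expected CpG in the 500 bp either side of the start had a median of 0.252 in the 916 genes (0.241 to 0.263), 0.721 in genes with both, 0.221 in genes with H3K4me3 alone and 0.142 in genes with neither. The GC share followed the same order, with medians of 50.2, 59.0, 48.7 and 43.3%. A ratio of 0.6 or more was reached by 78 of the 916 genes (8.52%) and by 71.5% of genes with both. Of those 78 genes, 60 were highly repeated, 27 lay on chromosome 14, and 8 had under 10% repeated sequence. These 8, named after their values were seen, were Sec1, Ly6k, Scg2, Btbd18, Asz1, Tlr6, 1700020N01Rik and Aox4. The 632 genes with both and a ratio under 0.3 had a median width of 486.5 bp, against 278 bp in the 591 members under that ratio, and the CpG ratios of these groups were not matched within that range.

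**Figure D3:**
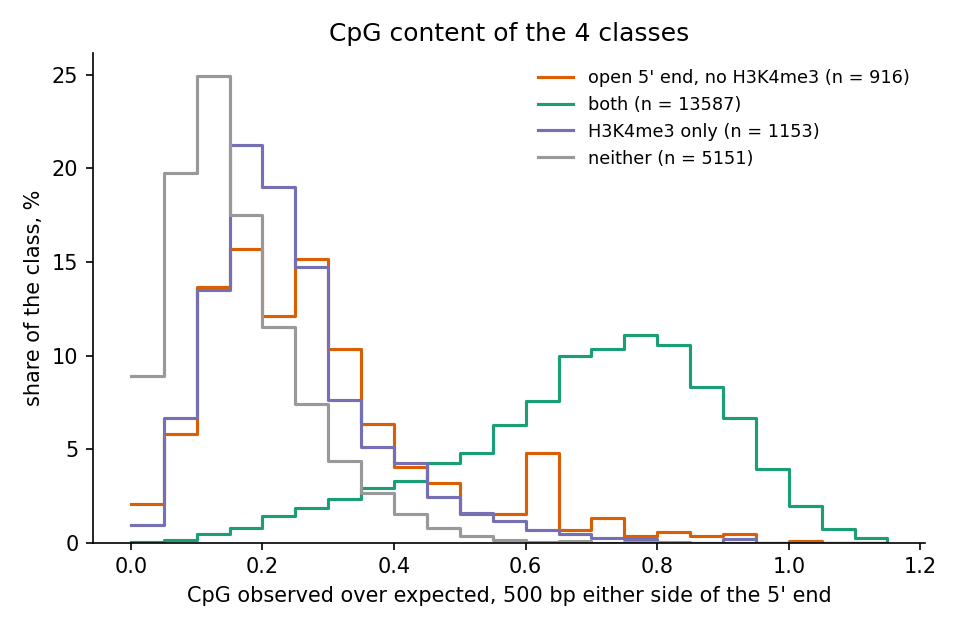
Share of each class (vertical axis, %) against the ratio of observed to expected CpG in the 500 bp either side of the 5′ end (horizontal axis, bins of 0.05), for the 4 classes. The open starts without H3K4me3 (median 0.252) overlap those with H3K4me3 alone (0.221) and lie below those with both (0.721), and a small second mode stands just above 0.6.

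Promoter letters were searched on both strands from 250 bp before to 50 bp after the start. The GC box GGGCGG, which Sp and Klf proteins bind, stood in 210 of the 916 windows (22.9%), against 62.8% with both, 4.41% with neither and 43.7% of all genes. The ETS motif CCGGAAG stood in 42 (4.59%), against 15.9% with both and 11.0% of all genes. The AP-1 motif TGANTCA, bound by Fos and Jun proteins, stood in 95 (10.4%), against 4.53% with both, 12.0% with neither and 6.88% of all genes. The core of the CTCF motif stood in 30 (3.28%), close to the 3.25% with both. The octamer ATGCAAAT, bound by POU proteins such as Oct4, stood in 20 (2.18%), against 1.35% with both, 2.21% with neither and 1.59% of all genes. The CCAAT box varied little, with 37.6% of members and 38.6% of all genes. The GC box and the ETS motif each hold a CpG. Genes with H3K4me3 alone, whose CpG ratio was near that of the members, had the GC box in 11.4% and the ETS motif in 2.17%. In the members with under 10% repeated sequence the GC box stood in 21.9% and the ETS motif in 2.66%. TATAAA anywhere in the window stood in 12.7% of members, 7.13% of genes with both, 14.2% with H3K4me3 alone, 27.2% with neither and 12.7% of all genes.

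At the place of a TATA box, with its first base 40 to 20 bp before the start on the gene's strand, TATAAA stood in 29 members (3.17%, 2.21 to 4.51%), 125 genes with both (0.920%), 30 genes with H3K4me3 alone (2.60%) and 332 genes with neither (6.45%). Over all genes it stood in 2.48%, which lies inside the interval of the members. In the members with under 10% repeated sequence the share was 3.44%. Sprr1a and Sprr2a3 above are examples, and Sprr2a2, Krtap10-4, Krtap10-10, Olfr976, Krt86 and Adamtsl2 are others. Krtap10-4 and Krtap10-10 encode proteins of the hair shaft matrix, and Krt86 a hair keratin. The genes named here for a TATA box, and those named above for identical sequence, were picked after their values were seen.

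Gene families differed in how often they fell in this class. Against 4.40% over all genes, the share was 17.9% in the serine proteases Prss and Tmprss (10 of 56), 16.9% in the testis genes named Tex and Spata (10 of 59), 27.8% in the schlafens and guanylate-binding proteins (5 of 18), 18.2% in the claudins (4 of 22), 20.0% in the phospholipases A2 (4 of 20) and 15.2% in the interleukins (5 of 33). These shares rest on few genes, and the Wilson interval for the guanylate-binding and schlafen group ran from 12.5 to 50.9%. With under 10% repeated sequence that group fell to 1 of 13 (7.69%), while the phospholipases stayed at 20.0%, the proteases were at 19.6%, the interleukins at 16.1%, the claudins at 15.0% and the testis genes at 14.5%. Over all genes with under 10% repeated sequence the share was 3.47% (639 of 18410). With the widest 50% of ATAC-seq peaks alone, the proteases went from 10 to 3 members, the testis genes from 10 to 5, the claudins from 4 to 1 and the interleukins from 5 to 2. The guanylate-binding and schlafen group kept 5 members under that limit and the phospholipases 3. With an H3K4me3 limit of 5 kb the phospholipases went from 4 to 2 members and the interleukins from 5 to 3. The proteases and the testis genes then kept 9 each, the claudins 3 and the guanylate-binding and schlafen group 5. The 5 members of the guanylate-binding and schlafen group were all guanylate-binding proteins, interferon-induced enzymes that attack pathogens inside cells. Gbp8, Gbp9 and Gbp4 have annotated starts within 47 bp and shared 1 peak of 721 bp on chromosome 5, while Gbp5 (551 bp) and Gbp6 (342 bp) had their own. Their CpG ratio was between 0.052 and 0.055 except in Gbp5 (0.169).

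**Figure D4:**
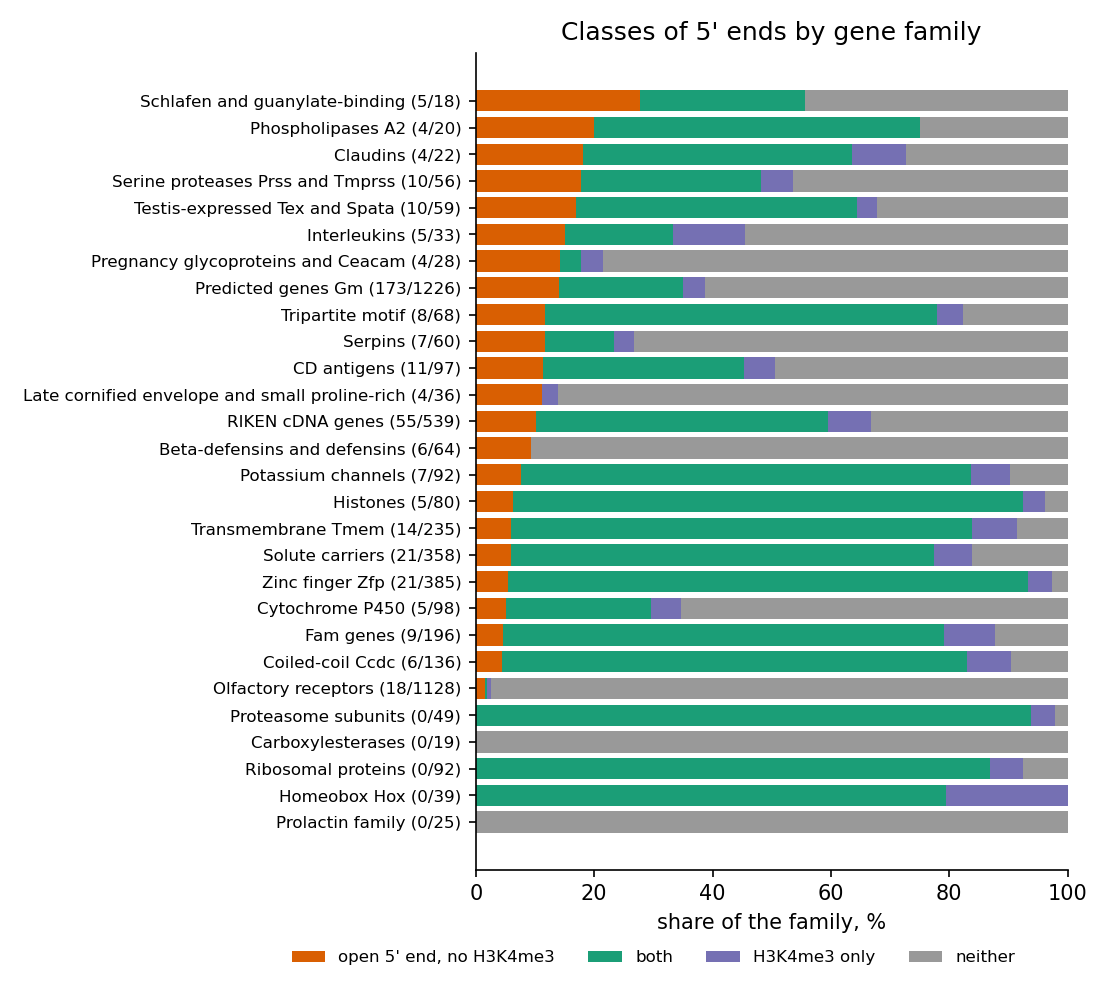
Share of each gene family (horizontal axis, %) in the 4 classes of 5′ ends, for families with at least 4 open starts without H3K4me3 and for 5 families with none (counts of such starts of all genes in parentheses). Among the families drawn, the guanylate-binding and schlafen family stands highest at 27.8% (7.69% with under 10% repeated sequence), and the Hox, ribosomal protein, proteasome, carboxylesterase and prolactin families hold none. Most Hox, ribosomal protein and proteasome genes had H3K4me3, which the rule excludes.

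The proteases had narrow peaks. Among the 10, which carry serine protease domains and act at cell surfaces or in secretions, the widest were at Prss21 (513 bp), Tmprss13 (432 bp), Tmprss9 (291 bp), Tmprss5 (229 bp), Tmprss4 (212 bp) and Prss53 (191 bp). Their median was 201.5 bp, against 653 bp in the 17 proteases with both. None of the 10 was highly repeated. Claudins, which seal tight junctions, gave Cldn8 (402 bp), Cldn15 (217 bp), Cldn22 (153 bp) and Cldn19 (122 bp). The phospholipases A2, most of which release fatty acids from membrane lipids, gave Pla2g5 (459 bp), Pla2g2e (320 bp), Pla2g3 (319 bp) and Pla2g12b (232 bp).

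The interleukins Il17b (418 bp), Il17c (346 bp), Il25 (187 bp), Il31 (185 bp) and Il6 (170 bp) were members. Chemokines, which draw leukocytes to a site, gave 3 of 37 (8.11%, 2.80 to 21.3%), Ccl20 (546 bp), Cxcl10 (271 bp) and Ccl2 (158 bp). Chemokine receptors gave 1 of 22 (4.55%) and killer cell lectin-like receptors 1 of 26 (3.85%), both near the 4.40% of all genes. The CD antigens, surface proteins that mostly mark leukocytes, gave 11 of 97 (11.3%). Among them were Cd68, a macrophage lysosomal protein (828 bp), Cd74, the invariant chain of class II antigen presentation (701 bp), Cd244a (458 bp), Cd160 (320 bp), Cd93 (266 bp) and Cd79a, part of the B cell receptor (257 bp). The antimicrobial defensins gave 6 of 64 (9.38%), and no defensin had both features. The serpins, mostly inhibitors of serine proteases, gave 7 of 60 (11.7%), with 7 also in the class with both and 44 in neither. Their widest peaks were at Serpina3i (772 bp), Serpinb8 (652 bp), Serpinb9b (572 bp) and Serpinb5 (564 bp).

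The testis genes were held by Spata22 (1361 bp), Tex52 (625 bp), Tex19.2 (469 bp), Spata16 (407 bp), Spata31d1b (394 bp) and Spata31 (219 bp) at the upper end. Olfactory receptors, the largest family listed, gave 18 of 1128 (1.60%), under the share of all genes. Of these receptors 21 had an open start at all, and 18 of the 21 lacked H3K4me3, against 6.32% of all open starts. The median width at the 18 starts was 194 bp. Their count became 11 and 38 with windows of 250 and 1000 bp, and 4 with the widest 50% of ATAC-seq peaks. Vomeronasal receptors gave 3 of 327, Vmn1r226 (371 bp), Vmn2r111 (203 bp) and Vmn1r80 (150 bp). No member was found among 38 taste receptors, 25 prolactins and 19 carboxylesterases, whose starts mostly had neither feature. None was found either among 39 Hox genes, 92 ribosomal protein genes and 49 proteasome subunit genes, of which 31, 80 and 46 had both. A further 8, 5 and 2 had H3K4me3 alone. The rule thus left out all 39 Hox genes and most of the others for their H3K4me3, and these zeros largely restate it.

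Solute carriers, transporters of small molecules across membranes, gave 21 of 358 (5.87%), close to the share of all genes. Slc25a37, the mitochondrial iron importer (1261 bp), was fully repeated, while Slc13a2 (1172 bp), Slc28a3 (551 bp), Slc16a4 (515 bp) and Slc39a2 (509 bp) had at most 1.79% repeated sequence. Cytochromes P450 gave 5 of 98 (5.10%) and potassium channel genes 7 of 92 (7.61%), led by Cyp4f15 (413 bp) and Kcne1 (617 bp). Zinc finger genes named Zfp gave 21 of 385 (5.45%), and 20 of the 21 were highly repeated. Of 29 open Zfp starts in highly repeated sequence, 20 lacked H3K4me3, near the 73.9% of all such open starts (178 of 241). In the 307 Zfp genes with under 10% repeated sequence 1 gene was a member (0.326%), against 3.47% of all such genes. Among the 21 Zfp members, Zfp97 (946 bp), Zfp781 (945 bp), Zfp433 (779 bp), Zfp991 (775 bp), Zfp973 (690 bp) and Zfp955b (688 bp) had the widest peaks.

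Unnamed genes made up a large part. Predicted genes with Gm numbers gave 173 members, 14.1% of 1226, and RIKEN genes gave 55, 10.2% of 539. With under 10% repeated sequence the Gm share was 6.31% (34 of 539) and the RIKEN share 9.36% (44 of 470), against 3.47% of all such genes. The 5 histone genes were all highly repeated, and 8 other highly repeated histone genes had both features. Of 13 open histone starts in highly repeated sequence, 5 thus lacked H3K4me3, against 73.9% of all such open starts.

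Genes that mark particular tissues gave 1 to 3 members in each of 9 lists, so the shares rest on few genes and were not tested. The Wilson intervals for muscle, neurons and glia, and the two-cell-like state lay above the 4.40% of all genes. Those of the other lists held it. Muscle gave 3 of 22 (13.6%, 4.75 to 33.3%), Tnnt3 (fast skeletal troponin T, 513 bp), Actc1 (cardiac actin, 472 bp) and Myog (the myogenic factor myogenin, 392 bp). Neurons and glia gave 3 of 20 (15.0%, 5.24 to 36.0%), Mobp and Mog, which are myelin proteins (755 and 229 bp), and Camk2a, a synaptic kinase (200 bp). Placenta gave 2 of 18, Syna, a syncytin that fuses trophoblast cells (264 bp), and Elf5, a trophoblast factor (148 bp). Epidermis and mammary gland gave 2 of 18, Sprr1a (409 bp) and Csn3, kappa casein (307 bp). Blood gave 2 of 25, Hba-a1, alpha globin (537 bp, 84.8% repeated), and Cd79a. Germline gave 2 of 30 (6.67%), Prm2, a protamine that packs sperm DNA (403 bp), and Piwil4, which acts in the piRNA pathway (110 bp). Liver gave 1 of 21 (4.76%), Fgg, the fibrinogen gamma chain (345 bp), and gut and pancreas gave 1 of 19 (5.26%), Vil1, villin of the brush border (450 bp). Genes of the two-cell-like state gave 3 of 17 (17.6%, 6.19 to 41.0%), Sp110 (326 bp), Usp17la (325 bp) and Gm5662 (280 bp), and Sp110 and Gm5662 were highly repeated.

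No member was found among 27 pluripotency genes, 17 housekeeping genes, 26 developmental regulators known as polycomb targets and 15 genes of feeder fibroblasts. Of these lists 23, 16, 23 and 11 genes had both features. In the first 3 lists the remaining 4, 1 and 3 genes had H3K4me3 alone. Every gene of those lists thus had H3K4me3, and their counts of 0 follow from the rule. In the fibroblast list the remaining 4 genes had neither, and its count of 0 of 15 has a Wilson upper limit of 20.4%.

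Beyond these families, gene names sharing a stem were counted after the values were seen. Aquaporins, the water channels, gave 4 of 11, Aqp1 (212 bp), Aqp7 (204 bp), Aqp2 (166 bp) and Aqp8 (101 bp), while 4 others had both. Interferon-inducible genes named Ifi gave 5 of 18, Ifi211 (442 bp), Ifi204 (261 bp), Ifi44l (220 bp), Ifi27 (205 bp) and Ifi203 (143 bp).

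Distance to H3K4me3 was used by the rule, which removes every gene within 2 kb, so it is given as a description beside genes with neither, which are cut in the same way. The median distance of the members to the nearest peak was 27282 bp (24299 to 29712 bp), nearer than the 60357 bp of genes with neither. Their quartiles were 10001 and 75350 bp. An H3K4me3 peak lay within 10 kb of 229 members and of 734 genes with neither (14.2%). In members with under 10% repeated sequence the median distance was 19720 bp, and in genes with neither of the same kind it was 46408 bp. The next coding gene had both features for 435 members (47.5%), against 26.9% of genes with neither and 65.1% of all genes.

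**Figure D5:**
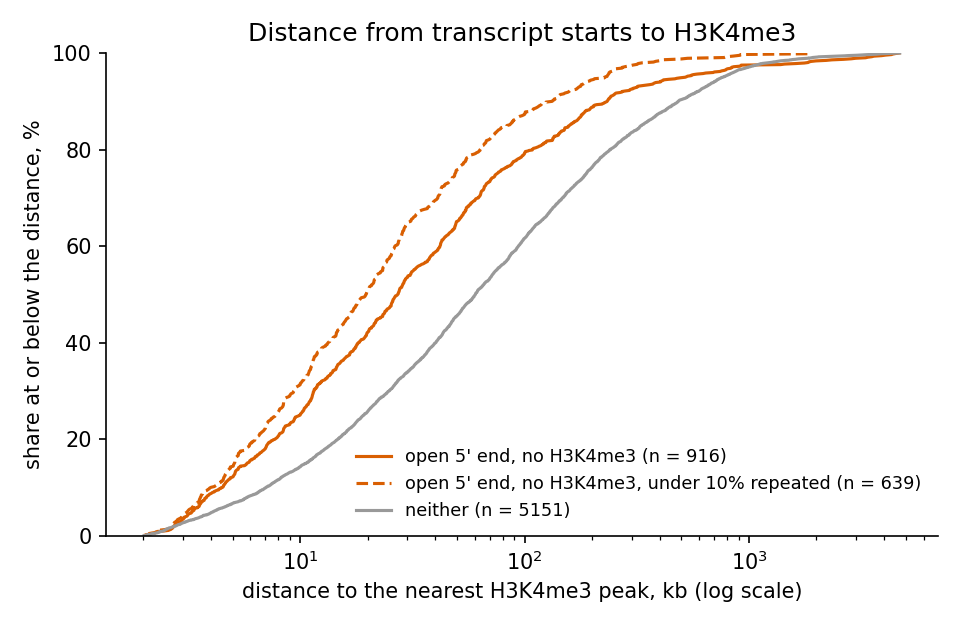
Cumulative share of genes (vertical axis, %) against the distance from any transcript start to the nearest H3K4me3 peak (horizontal axis, kb, log scale), for the 916 open starts without H3K4me3, the 639 of them with under 10% repeated sequence and the 5151 genes with neither. The medians are 27282, 19720 and 60357 bp, and all curves begin past 2 kb by definition.

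The choice of 2 kb divided few genes. Just outside it lay C1qa, a complement subunit (2041 bp from a peak with a fold of 2.51), Ect2l (2123 bp), Tnnc2, fast troponin C (2131 bp), 2410141K09Rik (2151 bp) and Nhlrc4 (2255 bp from a peak with a fold of 33.8). Just inside it lay Gm867 (1995 bp), Slc25a45 (1989 bp), Prnd (1943 bp), Cdhr5 (1870 bp) and Sema3g (1864 bp), which count as having both. There were 9 members between 2 and 2.5 kb and 15 genes with both between 1.5 and 2 kb, and an annotated start lay under an H3K4me3 peak in 13311 of the 13587. The window for ATAC-seq cut closer: 48 members had their peak more than 400 and up to 500 bp from the start, and 44 genes with neither had one up to 100 bp past the window.

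The 5 members farthest from H3K4me3 were Gm2897 (4679108 bp), D830030K20Rik (4503078 bp), Gm2956 (4380304 bp), Gm10409 (4315779 bp) and Gm3020 (4060875 bp), which all lie in the first megabases of chromosome 14. Of 23 members over 1 Mb from any H3K4me3 peak, 14 were highly repeated.

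Inside the gene body, 127 members (13.9%) had an H3K4me3 peak away from the annotated starts, against 351 genes with neither (6.81%) and 72.6% of all genes, most of which have H3K4me3 at a start. The median gene span was 12399 bp in the members and 7374 bp in genes with neither, and the shares were not adjusted for it. In the 127 the peak had a median fold of 5.25 and a highest of 59.1, at Gm49496. For 27 of them that fold reached the second of the 10 parts of genes with both. RefSeq starts were listed for 624 members, and 619 of these kept their class when those starts were added. The 5 that did not were Anxa9, Zfp993, Gm1604a, Inhbe and Ly6g5b, at 0, 112, 219, 619 and 1527 bp from an H3K4me3 peak, and in Zfp993 and Gm1604a the RefSeq start lay 98112 and 920858 bp from the start used.

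Members sat side by side in 8 clusters of at least 4, in which each member start was under 50 kb from the next. Each span below runs from the first to the last member start, so both of its ends are members by definition. The largest was on chromosome 4, where 14 of 19 coding genes over 86993 bp were members, Ifnz, Ifna4 and 12 predicted genes such as Gm13275 and Gm13278. These interferon genes and their neighbours had peaks of 122 to 924 bp, and 12 of the 14 were highly repeated. On chromosome 9, all 9 coding genes over 35955 bp were members, Gm10715, Gm10717, Gm10718, Gm10719, Gm10720, Gm10721, Gm10722, Gm11168 and Gm17535, and all 9 were highly repeated. On chromosome 10, 8 of 22 genes in a stretch of keratin-associated genes were members, Krtap10-4 (376 bp), Krtap10-10 (179 bp) and 6 predicted genes, with a median repeated share of 19.4%.

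The 5 histone members lay in a cluster of 6 coding genes over 23546 bp on chromosome 13, the remaining one of which had both features. Also on chromosome 13, Spata31d1a, Spata31d1b, Spata31d1d and 1700014D04Rik filled 36422 bp with peaks of 152 to 394 bp, and none was highly repeated. On chromosome 19, Ifit1 and Ifit1bl2 (1 shared peak of 299 bp), Ifit3 (288 bp) and Ifit3b (136 bp), antiviral interferon-induced genes, were 4 of 5 coding genes over 57340 bp. The last clusters were Gm47985, Gm8947, Gm47995, 3110040M04Rik and Gm47996 on chromosome 1 and Gm13691, Gm13693, Gm13694, Gm13695 and Gm13697 on chromosome 2, and all 10 of these genes were highly repeated. The next coding gene was itself a member for 169 of the 916 (18.4%), against 4.49% of all genes, and for 9.70% of the members with under 10% repeated sequence.

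Wider stretches, picked after the values were seen, held many members. Between 3 and 8 Mb on chromosome 14 there were 28 members among 103 coding genes, 2 genes with both and 73 with neither. Their peaks had a median width of 1000.5 bp and their CpG ratio a median of 0.603, and 19 of the 28 were highly repeated. Gm8281 and Gm3488 above come from this stretch. Between 174 and 178 Mb on chromosome 2, 32 of 54 coding genes were members, with a median width of 647 bp and a median CpG ratio of 0.31, and 31 of the 32 were highly repeated. They included Zfp965, Zfp966, Zfp967, Zfp968, Zfp969, Zfp972 and Zfp973. By chromosome, the share of coding genes in the class ran from 3.05% on chromosome 11 to 7.21% on chromosome 14 (65 of 902, of which 33 were highly repeated). Chromosome 1 was close to the latter at 7.12% (86 of 1208), and 9 of its 86 members were highly repeated.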

How the data were processed

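Both assays used F123 cells. The ATAC-seq list, as deposited by the authors, holds positions only. Per the methods, reads were aligned to mm10 with Bowtie 1.1.2, duplicates and mitochondrial reads were removed with SAMtools, MACS2 2.1.1.20160309 called peaks in the pooled reads and in either replicate, and bedtools 2.27.1 kept a pooled peak that both replicates shared. Width is thus that of a pooled peak. The stated calling limit was on a p-value not corrected for the number of places tested. The list holds no score by which weak peaks could be set aside. The H3K4me3 list, deposited by the authors from the ENCODE pipeline for histone marks, gives positions, a display score, a fold enrichment (a ratio) and −log10 q. Its aligner is not given in the sources used here.

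Genes and transcript starts came from GENCODE M21. Overlaps, CpG, motifs and repeated 50-mers (both strands of chromosomes 1 to 19, X and Y) were computed from the genome in Python 3.11.15 with numpy 2.4.6, pandas 2.3.3, scipy 1.17.1 and numba 0.67.0, and checked on simulated data. Intervals are Wilson for shares and binomial order statistics for medians, at 95%. They cover counting only, and genes are not replicates. No sample column was left unused.

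Named genes were the 10 widest, the 5 nearest to, just under and farthest from 2 kb or H3K4me3, up to 6 per family or tissue list in order of width, and clusters. The members and lists were chosen with earlier results of these data known. Chromosomes X and Y were left out of the class. Alternatives changed windows, distances, peak strength and gene set.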

Additional observations from a re-analysis of the deposited data

Results flagged for a closer look

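Chromosomes X and Y were outside the comparison and hold the same kind of start. On X, 48 of 948 coding genes (5.06%, 95% Wilson interval 3.84 to 6.65%) had an open 5′ end and no H3K4me3 within 2 kb, with a median ATAC-seq width of 218.5 bp, and 9 of them were highly repeated. They included Fthl17a, Fthl17b, Fthl17c, Fthl17e and Fthl17f, ferritin heavy chain copies, the Xlr genes Xlr3a, Xlr3b, Xlr3c, Xlr4a and Xlr4b, and Plac1, a placental gene. On Y, 4 of 183 coding genes were of this kind, Zfy1, Uba1y, Gm20828 and Gm47283, with 3 of them highly repeated.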

How the results depend on the processing

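The count of 916 genes stayed within 1.5 times under every alternative but the widest 50% of ATAC-seq peaks, which left 555. It was 789 and 1125 with windows of 250 and 1000 bp, 951 and 805 with H3K4me3 limits of 1 and 5 kb, 951 again with only H3K4me3 peaks whose −log10 q reached 5, and 1072 when H3K4me3 was measured from the 5′ end alone. The median width of 315 bp became 456 bp with the widest 50% of peaks, which removes narrow peaks by construction, and 277 bp with under 10% repeated sequence, an alternative added after seeing the data that left 639 genes. The CpG median of 0.252 became 0.237 with the 1000-bp window, 0.272 with the widest 50%, 0.240 with CCDS genes and 0.234 with under 10% repeated sequence. In all 13 settings the genes with both were wider, by 2.02 to 3.31 times. Of 31 families with at least 3 members, the count moved by over 1.5 times in 15 with the widest 50% of peaks and in 8 with under 10% repeated sequence. No paired analysis was possible because each list joins both replicates, and for the same reason leaving out a replicate was not run. Read depth is unknown, so a weak H3K4me3 peak below the calling threshold cannot be told from none. A start counted as open may likewise rest on a weak ATAC-seq peak. Those peaks were called at an uncorrected p-value limit, and their strength is not given.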
